A study of Mus musculus with 2 samples.

Results

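The cells described here were CD8 T cells of mouse Hepa1-6 tumours that carried transcripts of Tcf7 and of Pdcd1 (PD-1) with little or none of Havcr2 (TIM-3). A barcode counted as a CD8 T cell with at least 2 UMIs (unique molecular identifiers, each standing for 1 captured transcript) of Cd3e, Cd3d and Cd3g together and at least 2 of Cd8a and Cd8b1 together. It had no Cd4 or Foxp3, at most 2 of the keratins Krt8 and Krt18, at most 1 of the myeloid genes Lyz2, Csf1r and S100a8, and at most 2 of the proliferation genes Mki67 and Top2a. Of these cells, those with at least 1 UMI of Pdcd1, at least 1 of Tcf7 and at most 1 of Havcr2 were kept, so these 3 genes are description and not a result. There were 161 such cells among 3286 CD8 T cells, with 75 of 1350 in the LYTAC library and 86 of 1936 in the control library. They are called Tcf7+ PD-1+ cells here, all of them TIM-3 low.

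The series compared Hepa1-6 tumours, grown from a mouse hepatoma line, after treatment with CD147-LYTACs and without it, by droplet single-cell RNA sequencing. The LYTAC library came from mice given 40 mg/kg every 3 days for 4 doses, by an intraperitoneal or intravenous route that the labels leave unsettled, with tumours taken on day 12, and the control library from tumours labelled control, with no vehicle named in the labels. In both, CD45- and CD45+ cells were sorted and mixed again at 1 to 3. There was 1 library a group and the number of mice in each was not stated, so no test between treatments could be made, and the intervals below are 95% intervals that cover counting error alone.

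TCF-1, the product of Tcf7, is a transcription factor that keeps T cells in a state from which they can renew themselves. In chronic infection and in tumours, CD8 T cells with both TCF-1 and PD-1 are known as a progenitor or stem-like exhausted pool, which divides and gives rise to TIM-3-bearing, granzyme-rich cells, and it is the pool that responds to PD-1 blockade. In mice such cells are known for the chemokine XCL1, the adhesion molecule CRTAM and the receptor SLAMF6. A LYTAC (lysosome-targeting chimera) binds a surface protein and a receptor that carries it to the lysosome, where the protein is degraded. CD147 (basigin, gene Bsg) is the partner that lactate transporters need at the cell surface. As a LYTAC acts on protein, the RNA of Bsg does not check the labels.

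Xcl1 (chr1:164931644-164935527, minus strand) and Lef1 (chr3:131110471-131224356, plus strand, GENCODE M21 on GRCm38) were among the genes outside the rule with the largest ratios over both Tcf7-negative populations examined. The 250 bases before their RefSeq transcript starts on GRCm38.p6 are shown for that reason, 5′ to 3′ on the gene's strand. The capitals mark a match to the RUNX motif TGTGGTT, here on the opposite strand.
Xcl1, chr1:164935523-164935772, minus strand: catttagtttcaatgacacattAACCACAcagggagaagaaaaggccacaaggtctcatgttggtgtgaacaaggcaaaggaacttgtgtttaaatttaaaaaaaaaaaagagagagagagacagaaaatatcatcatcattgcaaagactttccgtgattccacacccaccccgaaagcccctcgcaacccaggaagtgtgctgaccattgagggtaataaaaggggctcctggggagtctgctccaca
Lef1, chr3:131110047-131110296, plus strand: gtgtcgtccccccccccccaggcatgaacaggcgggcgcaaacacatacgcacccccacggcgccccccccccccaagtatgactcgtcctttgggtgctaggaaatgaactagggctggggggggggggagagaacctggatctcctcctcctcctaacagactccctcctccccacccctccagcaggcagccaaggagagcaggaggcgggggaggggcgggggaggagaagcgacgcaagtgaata
Promoters (250 bases before to 50 after the start) of 85 of the 105 nameable genes higher in Tcf7+ PD-1+ than in TIM-3-high cells were in the RefSeq table. The RUNX motif was in 3.53% of these 85, against 3.56% of the 4862 promoters of all genes compared. A TCF/LEF motif (ATCAAAG) was in 2.35% of the 85, against 2.30% of the 4862, and an AP-1 motif (TGANTCA) in 3.53%, against 4.50%. Of the 223 genes lower than in TIM-3-high cells, 169 had a promoter in the table, with the RUNX motif in 7.69%, the AP-1 motif in 7.69% and the TCF/LEF motif in 2.37%. All 3 were searched on both strands and matches are descriptions of these letters only.

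The LYTAC library held 9219 barcodes and 149812326 UMIs and the control library 8150 barcodes and 143495332 UMIs, of which 8176 and 7091 barcodes met the quality limits. The Tcf7+ PD-1+ cells had a median of 7017 UMIs in the LYTAC library and 7126.5 in the control library, and summed to 597827 and 713195 UMIs. The libraries shared 24 barcodes, and none of them was a Tcf7+ PD-1+ cell. Most cells passed on few transcripts. Tcf7 stood at 1 UMI in 36 LYTAC and 37 control cells and Pdcd1 at 1 UMI in 33 LYTAC and 33 control cells, while Havcr2 was at 0 in 59 LYTAC and 63 control cells and at 1 in the remaining 16 and 23. A cell scored negative for 1 of these genes may have held transcripts that were not captured.

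Tcf7+ PD-1+ cells made up 5.56% (4.39 to 6.91) of the CD8 T cells in the LYTAC library and 4.44% (3.57 to 5.46) in the control library. The ratio of the shares was 1.25, with a counting interval of 0.91 to 1.72 that includes 1. The Tcf7+ cells without Pdcd1 (TIM-3 low) made up 3.70% (2.76 to 4.85) in the LYTAC library and 6.71% (5.64 to 7.92) in the control library. These intervals did not overlap, but with every cell thinned to 2000 UMIs before gating the shares were 4.55% (3.497 to 5.81) and 5.70% (4.71 to 6.83), whose intervals overlap. Taken over all Tcf7+ CD8 T cells, whatever their Havcr2, Pdcd1 was present in 106 of 163 cells, or 65.0% (57.2 to 72.3), in the LYTAC library and in 135 of 280, or 48.2% (42.2 to 54.2), in the control library. Pdcd1 and Tcf7 are genes of the rule, so these shares are a description. With the gate read at 2000 UMIs they were 24.4% (15.6 to 35.1) in the LYTAC library and 17.1% (11.3 to 24.4) in the control library, and at 4000 UMIs 43.9% (34.3 to 53.9) and 32.4% (25.8 to 39.6), with overlapping intervals at both depths. TIM-3-high cells (Pdcd1 present, Tcf7 absent, Havcr2 at least 2 UMIs) made up 38.9% in the LYTAC library and 36.8% in the control library. Tcf7-negative PD-1+ TIM-3-low cells made up 29.1% and 30.4%.

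**Figure D1:**
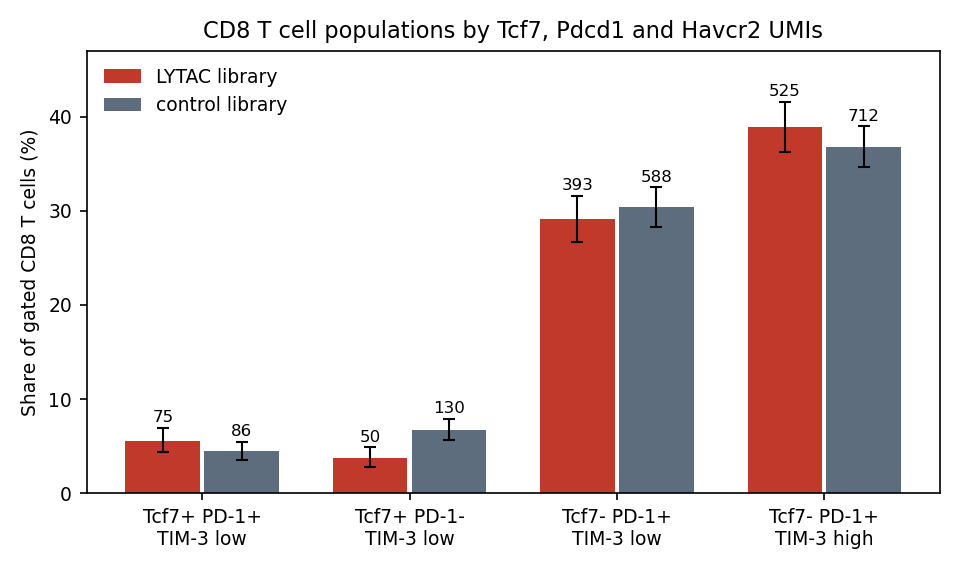
Share of gated CD8 T cells (percent, y axis) in each of 4 populations set by Tcf7, Pdcd1 and Havcr2, with the LYTAC library left of the control library. Bars carry 95% Clopper-Pearson intervals and the number of cells. The Tcf7+ PD-1+ intervals of the 2 libraries overlap, and the Tcf7+ PD-1- intervals do not at the full depth plotted, though they do with cells thinned to 2000 UMIs.

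The markers expected of a progenitor pool were present in part. Among CD8 T cells they are set here against TIM-3-high cells alone, so they are not shown here to be particular to the Tcf7+ PD-1+ cells. Xcl1, the chemokine that draws XCR1+ dendritic cells, stood at 258 CPM (the gene's part of all UMIs summed over the cells, on the usual CPM scale) in Tcf7+ PD-1+ cells of the LYTAC library and at 65.9 CPM in those of the control library, against 22.1 and 13.6 CPM in the TIM-3-high cells of the same libraries. Crtam, an adhesion receptor of activated cytotoxic cells, stood at 66.9 and 49.1 CPM, against 20.3 and 18.2 CPM in TIM-3-high cells. Slamf6 stood at 43.5 and 30.8 CPM, against 8.20 and 5.52 CPM, from 26 and 22 UMIs in the Tcf7+ PD-1+ cells, too few for the limit of 100 UMIs used below. With every cell thinned to 2000 UMIs, an Xcl1 transcript was found in 17.3% of the LYTAC and 8.14% of the control Tcf7+ PD-1+ cells, against 2.29% and 2.53% of TIM-3-high cells and 0 of 1655 and 0 of 1490 thinned hepatoma cells (barcodes with at least 10 UMIs of Krt8 and Krt18 and none of Cd3 genes or Ptprc), which allow up to 0.181% and 0.201% of cells with a UMI at that depth. Unthinned, hepatoma cells held 5 and 5 UMIs of Xcl1, or 0.0648 and 0.0672 CPM, at median depths of 42353.5 and 45869 UMIs. Cxcr5, a follicle-homing receptor found on such cells in chronic viral infection, had 0 UMIs in both libraries. Il2 had 0 UMIs too, and Id3, a repressor of effector fate, had 3 and 9. As 2 of the 5 markers fixed for the name lie outside the rule, the cells are called by their genes and not by a cell type name.

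Against TIM-3-high cells, the Tcf7+ PD-1+ cells had more Ccr7, Lef1, Bach2 and Il7r and less Gzmb, Prf1, Nkg7 and Ifng, in both libraries. A gene was counted where it differed at least 1.5-fold in the same direction in both libraries, with at least 100 UMIs over the 2 populations in each. By this rule 332 of 6042 genes (5.49%) differed, 106 higher (1.75%) and 226 lower (3.74%). Cells of 1 library are not replicates, and the cells were chosen on Tcf7 and Havcr2, so these are descriptions of populations and carry no test.

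The 12 genes furthest on the high side were Ccr7, Xcl1, Lef1, Bach2, Ptprk, Adk, Tnfsf11, Pecam1, Tbc1d4, Sidt1, Ramp3 and Bicdl1. Ccr7, the receptor that leads T cells to lymph nodes, stood at 472 CPM in the LYTAC and 545 CPM in the control Tcf7+ PD-1+ cells, against 75.4 and 73.0 CPM in TIM-3-high cells, a log2 ratio of 2.65 (2.41 to 2.88) and 2.90 (2.70 to 3.10). The transcript was unevenly spread: 45 LYTAC and 50 control cells had none, and 20 and 24 cells had 5 UMIs or more. Lef1, the partner factor of TCF-1, stood at 139 and 201 CPM, against 27.8 and 47.4 CPM, with a log2 ratio of 2.32 (1.90 to 2.74) and 2.08 (1.78 to 2.38). Bach2, a repressor that holds back effector genes, stood at 875 and 1008 CPM, against 194 and 249.8 CPM, with a log2 ratio of 2.17 (2.01 to 2.33) and 2.01 (1.88 to 2.14). Bach2 was also the most widely carried of these, with none in only 5 LYTAC and 7 control cells. Tnfsf11 (RANKL, a TNF-family ligand) had log2 ratios of 2.29 and 1.71. Pecam1 (CD31, an inhibitory adhesion molecule) had 1.81 and 1.69. Ptprk and Adk stood at about 100 CPM in the Tcf7+ PD-1+ cells (100 and 102 CPM for Ptprk, 102 and 99.6 CPM for Adk), close to their levels in hepatoma cells (90.2 and 96.7 CPM for Ptprk, 65.1 and 67.8 CPM for Adk), and the part of free tumour RNA in them was not tested.

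The 12 furthest on the low side were Gzme, Gzmd, Filip1, Prf1, Plcl1, Ccl3, Cxcl2, Gzmb, Gzmf, Gm36723, Serpinb9b and Serpine2. Gzmb (granzyme B, the main killing protease) stood at 186 CPM in the LYTAC and 122 CPM in the control Tcf7+ PD-1+ cells, against 796 and 722 CPM in TIM-3-high cells, a log2 ratio of -2.10 (-2.39 to -1.83) and -2.56 (-2.89 to -2.26). Prf1 (perforin, which lets granzymes into the target) stood at 41.8 and 33.7 CPM, against 251 and 249 CPM, with a log2 ratio of -2.58 (-3.22 to -2.02) and -2.89 (-3.53 to -2.31). Thinned to 2000 UMIs, Gzmb was found in 12.0% and 14.0% of Tcf7+ PD-1+ cells, against 58.5% and 56.7% of TIM-3-high cells and 0.242% and 0.0671% of hepatoma cells. Ccl3 and Cxcl2 are chemokines that myeloid cells also make. Cxcl2 stood at 38.5 and 18.2 CPM in Tcf7+ PD-1+ cells, below its 93.3 and 26.65 CPM in hepatoma cells, and the part of free RNA in it was not tested. In the control library, removing the cells with the highest doublet scores turned its log2 ratio to 1.10.

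**Figure D2:**
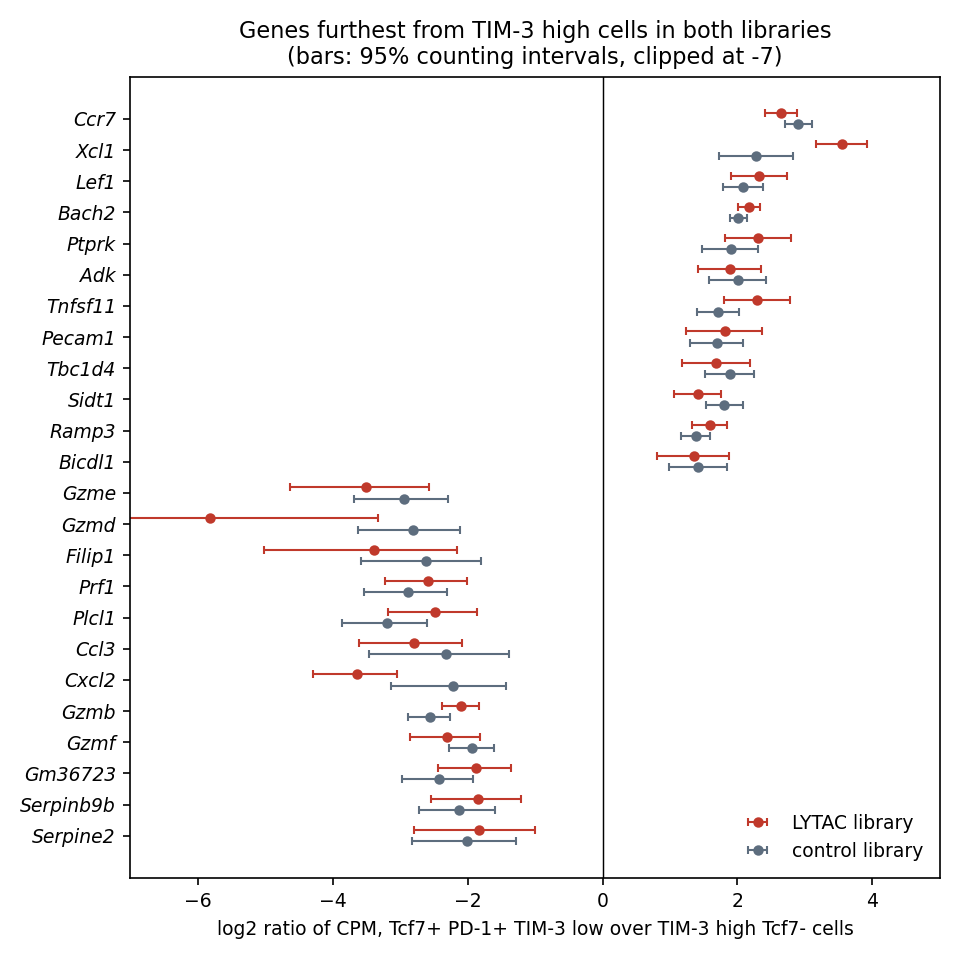
Log2 ratio of CPM (x axis) of Tcf7+ PD-1+ TIM-3-low over TIM-3-high cells within the LYTAC library (upper point of each pair) and the control library (lower point) for the 12 genes furthest to each side, with 95% counting intervals. Both libraries lie on the same side for every gene shown, as the rule for choosing them requires, and Xcl1 is further out in the LYTAC library.

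By gene group, the genes that differed in the progenitor-exhausted and the naive and memory lists were all higher, and those in the exhaustion and cytotoxic lists were all lower. Of 20 progenitor-exhausted genes, 14 had enough UMIs and 5 were higher (Xcl1, Crtam, Myb, Bach2 and Gpr183), none lower, with a median log2 ratio of 0.39 in the LYTAC library and 0.43 in the control library, beside 0.00 and -0.04 over all genes. Of 20 naive and memory genes, 14 had enough UMIs and 4 were higher (Lef1, Ccr7, Il7r and Klf2). Il7r, the interleukin-7 receptor that memory cells live on, stood at 294 and 338 CPM, against 147 and 191 CPM. Klf2, which maintains quiescence and trafficking, stood at 98.7 and 81.3 CPM, against 38.5 and 35.2 CPM, while hepatoma cells held 111 and 105 CPM of it.

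Of 22 inhibitory-receptor and exhaustion genes, 16 had enough UMIs and 8 were lower, none higher, with medians of -0.64 and -0.49. They were Lag3 (an inhibitory receptor), Entpd1 and Cd38 (surface enzymes of the adenosine pathway, the first a mark of terminal exhaustion), Id2 and Prdm1 (effector transcription regulators), Rgs16, Il10ra and Cxcr6. Lag3 stood at 51.9 and 60.3 CPM, against 122 and 143 CPM, and Prdm1 (Blimp-1) at 18.4 and 21.0 CPM, against 73.1 and 70.5 CPM, with 77.6 and 90.2 CPM in hepatoma cells. Tox, the factor that imposes the exhausted state, was not among the lower genes: it stood at 396 and 408 CPM, against 429 and 351 CPM. Of 24 cytotoxic genes, 22 had enough UMIs and 9 were lower, none higher, with medians of -0.82 and -0.55. Beside the granzymes and Prf1 these included Nkg7 (622 and 432 CPM, against 1462 and 1119.9 CPM), Ifng (132 and 85.5 CPM, against 387 and 275 CPM) and Serpinb6b. Gzmc was at 3 and 1 UMIs in the Tcf7+ PD-1+ cells.

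Genes of some other groups differed as well. Of 13 genes of chemokines and their receptors with enough UMIs, 3 were higher (Xcl1, Ccr7 and the retention receptor Cxcr4) and 5 lower, among them Ccl3, Ccl4, Ccr2 and Cxcr6. The medians of this list were -0.63 in the LYTAC library and -0.55 in the control library. The growth factor Csf1 and the receptor subunit Il2rb were lower, and of the costimulatory receptors Tnfrsf9 (4-1BB, 346 and 293 CPM, against 681 and 584 CPM) and Cd226 were lower. In the list of CD147 and lactate genes, Emb (embigin, the sister of basigin that also chaperones lactate transporters) was the only 1 of 12 that differed, at 1489 and 2033 CPM, against 675 and 1035 CPM. None of 13 glycolysis genes differed at least 1.5-fold in both libraries, with medians of -0.28 and -0.36, nor any of 20 genes of oxidative phosphorylation, with medians of -0.03 and -0.04.

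**Figure D3:**
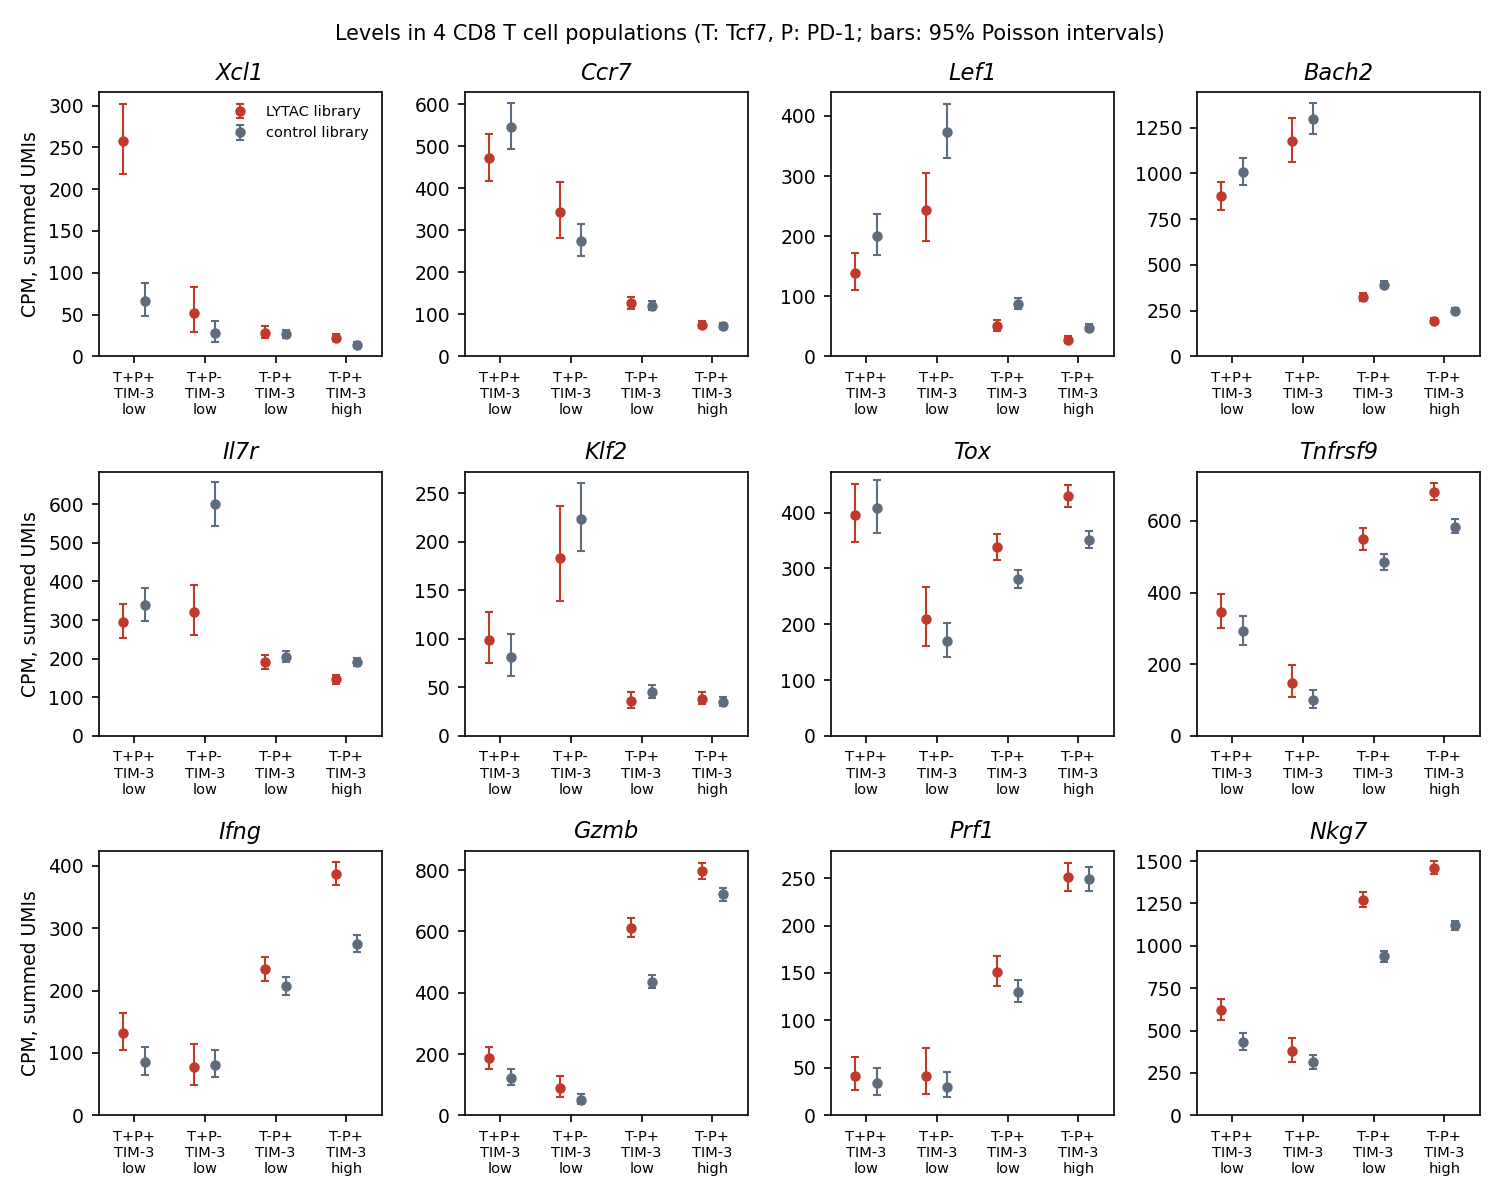
CPM from summed UMIs (y axis, linear) of 12 genes in the 4 CD8 populations (x axis; T is Tcf7 and P is PD-1), the LYTAC library left of the control library, with 95% Poisson intervals. Xcl1 is highest in the Tcf7+ PD-1+ cells, Lef1 and Klf2 in the Tcf7+ PD-1- cells, and Gzmb, Prf1, Ifng and Nkg7 in the TIM-3-high cells.

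Against Tcf7+ cells without Pdcd1, the Tcf7+ PD-1+ cells had more Gzmb and Itgav and less Klf2 in both libraries. Of 1728 genes with enough UMIs, 49 (2.84%) differed in both libraries, 35 higher (2.03%) and 14 lower (0.81%). The PD-1-negative cells were shallower, with median UMIs of 5317.5 in the LYTAC library and 5002.5 in the control library, and were 50 and 130 cells, so the part of missed Pdcd1 transcripts in them was not tested. The 12 highest were Dscam, Irf8, Myo10, Tmem163, Tnfrsf9, Itgav, Fam162a, AA467197, Gzmb, Stk39, Thap12 and Ttc39c. Myo10 stood at 226 and 418 CPM in the Tcf7+ PD-1+ cells, with 427 and 450 CPM in hepatoma cells. Fam162a stood at 141 and 116 CPM, with 121 and 131 CPM in hepatoma cells. The part of free tumour RNA in these 2 genes was not tested. Tnfrsf9, which is induced by receptor signals, stood at 346 CPM in the LYTAC and 293 CPM in the control Tcf7+ PD-1+ cells, against 148 and 101 CPM, with a log2 ratio of 1.23 (0.76 to 1.72) and 1.54 (1.15 to 1.94). Irf8, a transcription factor of activated CD8 T cells, stood at 283 and 157 CPM, against 99.6 and 24.9 CPM, with 135 and 129 CPM in hepatoma cells. Tox stood at 396 and 408 CPM, against 209 and 170 CPM, with log2 ratios of 0.93 and 1.26, and Ikzf2 (Helios) at 714 and 806 CPM, against 305 and 446 CPM. Of 24 cytotoxic genes, 10 had enough UMIs and 3 were higher (Gzmb, Serpinb9 and Serpinb6b, the last 2 being inhibitors of granzymes and related proteases), none lower. Gzmb stood at 186 and 122 CPM, against 89.9 and 51.1 CPM. With the gate read at 2000 UMIs the log2 ratio of Serpinb6b was -0.65 in the LYTAC library and -1.05 in the control library. None of 11 immediate-early and receptor-signal genes with enough UMIs differed, and their medians were -0.23 and -0.24. Of 20 progenitor-exhausted genes, 8 had enough UMIs and 1 was higher, with medians of -0.14 in the LYTAC library and 0.22 in the control library. Of 21 genes of chemokines and their receptors, 7 had enough UMIs, none was higher and 1 was lower. Xcl1 was thus not counted as higher than in the PD-1-negative cells.

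The 12 lowest against the PD-1-negative cells were Foxn3, Klf2, Ccl4, 1700025G04Rik, Lef1, Fgf13, Diaph2, Zfp36l2, Foxp1, Malt1, Elmsan1 and Ski. Lef1 stood at 139 and 201 CPM, against 244 and 373 CPM, with log2 ratios of -0.81 (-1.28 to -0.35) and -0.89 (-1.20 to -0.60). Klf2 stood at 98.7 and 81.3 CPM, against 183 and 224 CPM. Foxp1, which enforces quiescence in naive T cells, stood at 276 and 262 CPM, against 459 and 482 CPM. These 3 were the lower ones among 12 naive and memory genes with enough UMIs, and none was higher. Lef1 and Klf2 therefore lay between the PD-1-negative and the TIM-3-high cells in both libraries, and so did Tnfrsf9. Ccr7 stood at 472 and 545 CPM, against 344 and 275 CPM in the PD-1-negative cells, short of 1.5-fold in the LYTAC library. These values depend on the depth at which the gate is read: with cells thinned to 2000 UMIs before gating, which leaves 20 LYTAC and 22 control Tcf7+ PD-1+ cells, Tox, Tnfrsf9, Ikzf2 and Foxp1 changed sign in the LYTAC library (-0.048, -0.43, -0.25 and 0.024) and Dscam and Lef1 in the control library (-0.74 and 0.021), while Irf8 in the LYTAC library was at 0.024.

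Against Tcf7-negative PD-1+ TIM-3-low cells, which differ by the rule in Tcf7 alone, 131 of 4700 genes (2.79%) differed in both libraries, 43 higher (0.915%) and 88 lower (1.87%). By the same ranking the highest were Ccr7, Ntrk3, Tnfsf4, Tnfsf11, Adk, Bach2, Xcl1, Tnfsf8, Lef1, Sidt1, Myb and Pecam1. TNF-family ligands stood among them: Tnfsf4 (OX40 ligand) at 109 and 112 CPM, against 32.6 and 32.6 CPM, Tnfsf8 (CD30 ligand) at 73.6 and 135 CPM, against 30.9 and 26.7 CPM, and Tnfsf11 at 100 and 170 CPM, against 29.7 and 51.8 CPM. Tnfsf8 had a log2 ratio of -0.22 in the control library with the gate read at 2000 UMIs. The lowest were Prf1, Csf1, Gzmb, Plcl1, Hspa1a, Styk1, Hspa1b, Prdm1, Sytl2, Gm36723, Nkg7 and Il10ra. Gzmb stood at 186 and 122 CPM, against 612 and 436 CPM. Cd3g, which the rule used only in a sum, was also lower, at 492 and 442 CPM, against 928 and 756 CPM.

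Within the Tcf7+ PD-1+ cells, single-cell levels were widely spread. The summed level of the naive and memory list ran from 1501 to 11158.5 CPM per cell in the LYTAC library with a median of 4142, and from 2134 to 9520.0 CPM in the control library with a median of 4779. The cytotoxic list ran from 2023 to 11580.2 CPM with a median of 4665 in the LYTAC library, and from 1106 to 12602 CPM with a median of 4713 in the control library. The median TIM-3-high cell had 7045 and 6800.3 CPM of the cytotoxic list. Slamf6 was found without Gzmb in 13 LYTAC and 13 control cells, Gzmb without Slamf6 in 21 and 25, both in 4 and 3, and neither in 37 and 45. Xcl1 and Slamf6 were found together in 8 and 7 cells, Slamf6 alone in 9 and 9, and Xcl1 alone in 15 and 11. With counts this sparse, neither pair shows whether the genes go together or apart.

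**Figure D4:**
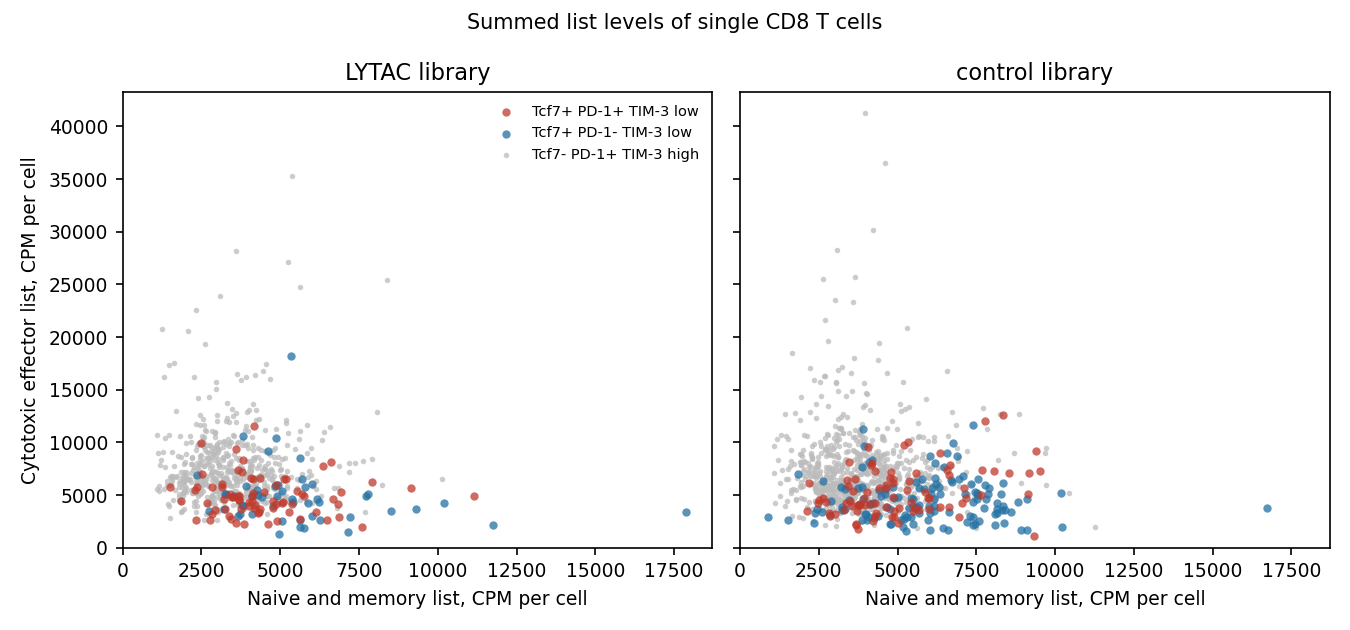
Summed CPM of the cytotoxic list (y axis) against that of the naive and memory list (x axis) in single cells of the LYTAC library (left) and the control library (right). Tcf7+ PD-1+ cells (red) have medians of 4665 and 4713 CPM on the cytotoxic list, below the 7045 and 6800.3 CPM of TIM-3-high cells (grey), and overlap the Tcf7+ PD-1- cells (blue).

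The threshold on Havcr2 divided neighbouring cells. Tcf7+ PD-1+ cells with 0 Havcr2 UMIs had 162 CPM of Gzmb in the LYTAC library and 82.8 in the control library, and those with 1 had 258 and 237 CPM. Just outside, the 16 LYTAC and 8 control cells with 2 Havcr2 UMIs had 196 and 684 CPM. With 3 or more Havcr2 UMIs, Gzmb stood at 542 and 293 CPM. Crtam stood at 77.7 and 63.9 CPM in the cells with no Havcr2, at 34.0 and 5.51 CPM in those with 1, and at 38.4 and 17.5 CPM in those with 2. The control Tcf7+ PD-1+ cells held 35 Crtam UMIs in all. Other genes did not all follow Crtam. Lef1 stood at 124 and 164 CPM with no Havcr2 and at 184 and 309 CPM with 1. Xcl1 stood at 313 and 65.8 CPM with no Havcr2 and at 88.4 and 66.1 CPM with 1.

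Between treatments, the Tcf7+ PD-1+ cells of the LYTAC library had more Xcl1, Ifitm2 and Nfatc1 and less Rbm47, Notch2, Cdk8 and Satb1 than those of the control library. Of 2528 genes that reached 100 UMIs in the libraries together, 239 (9.45%) differed at least 1.5-fold, 84 higher (3.32%) and 155 lower (6.13%), and for 237 (9.38%) the interval also excluded 0. In all other CD8 T cells, where the sums are far larger, 374 of 9438 (3.96%) differed at least 1.5-fold, whatever their interval. With 1 library each, a treatment difference and a difference between libraries or animals cannot be told apart.

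Xcl1 had the largest difference on the high side. It had 154 UMIs in the LYTAC and 47 in the control Tcf7+ PD-1+ cells, or 258 CPM (219 to 302) and 65.9 CPM (48.4 to 87.6), a log2 ratio of 1.97 (1.49 to 2.47). A transcript was found in 23 of 75 LYTAC cells and in 18 of 86 control cells, and 7 LYTAC and 3 control cells had 5 UMIs or more. The richest single cell held 24.7% of the LYTAC and 21.3% of the control UMIs, and without these cells the log2 ratio was 1.90. In all other CD8 T cells the log2 ratio was 0.31 (0.06 to 0.55), with 0.70 in the TIM-3-high cells and 0.90 in the Tcf7+ cells without Pdcd1. Thinned to 2000 UMIs, the shares were 17.3% (9.57 to 27.8) and 8.14% (3.34 to 16.1), whose intervals overlap, so a difference in the number of cells with Xcl1 was not detectable at this depth.

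The other 9 genes named on the high side were Ifitm2, Ccl4, Taf10, Dbi, Tomm5, Rbm42, Nfatc1, Cmtm7 and Eif3i. Ccl4, a chemokine of activated T cells and macrophages, stood at 125 CPM in the LYTAC and 50.5 CPM in the control cells, a log2 ratio of 1.31 (0.72 to 1.93). Its log2 ratio was 0.76 in all other CD8 T cells, 1.02 in TIM-3-high cells and 1.44 in Tcf7+ cells without Pdcd1. In hepatoma cells, which should lack it, Ccl4 stood at 16.3 and 1.22 CPM, and the LYTAC library held 955 myeloid-gated cells against 177 in the control library. The part of free myeloid RNA in this difference was not tested. Ifitm2, an interferon-inducible antiviral gene, stood at 309 and 123 CPM, with a log2 ratio of 1.33 (0.95 to 1.71). The Ifitm2 ratio was 0.46 in all other CD8 T cells, 0.35 in TIM-3-high cells and -1.15 in Tcf7+ cells without Pdcd1. Nfatc1, the calcium-dependent factor of T cell receptor signalling, stood at 135 and 68.7 CPM, with a log2 ratio of 0.98 (0.45 to 1.52), against 0.15 in the other CD8 T cells. For Dbi 1 LYTAC cell held 34.7% of the UMIs, and without the richest cell of each library its log2 ratio was 0.66 in place of 1.13.

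The 10 genes named on the low side were Cd74, Rbm47, Gnaq, Uap1, Mpp7, Notch2, Ell2, Pcnx, Clic4 and Cdk8. Cd74 (the invariant chain of MHC class II) stood at 60.2 and 223 CPM, with a log2 ratio of -1.89 (-2.45 to -1.36), but 1 control cell held 62.9% of the control UMIs and without the richest cells the log2 ratio was -0.94. Clic4 rested on 1 control cell with 52.8% of the UMIs, and its log2 ratio of -1.07 was -0.14 without the richest cells. Cdk8, a kinase of the Mediator complex, stood at 308 and 639 CPM, with a log2 ratio of -1.05 (-1.31 to -0.80), with -1.07 in all other CD8 T cells and -0.83 in hepatoma cells, so its difference was shared by cells of both kinds. Notch2, a receptor that drives effector differentiation, stood at 83.6 and 188 CPM, with a log2 ratio of -1.17 (-1.67 to -0.69), and Rbm47, an RNA-binding protein, at 43.5 and 154 CPM.

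**Figure D5:**
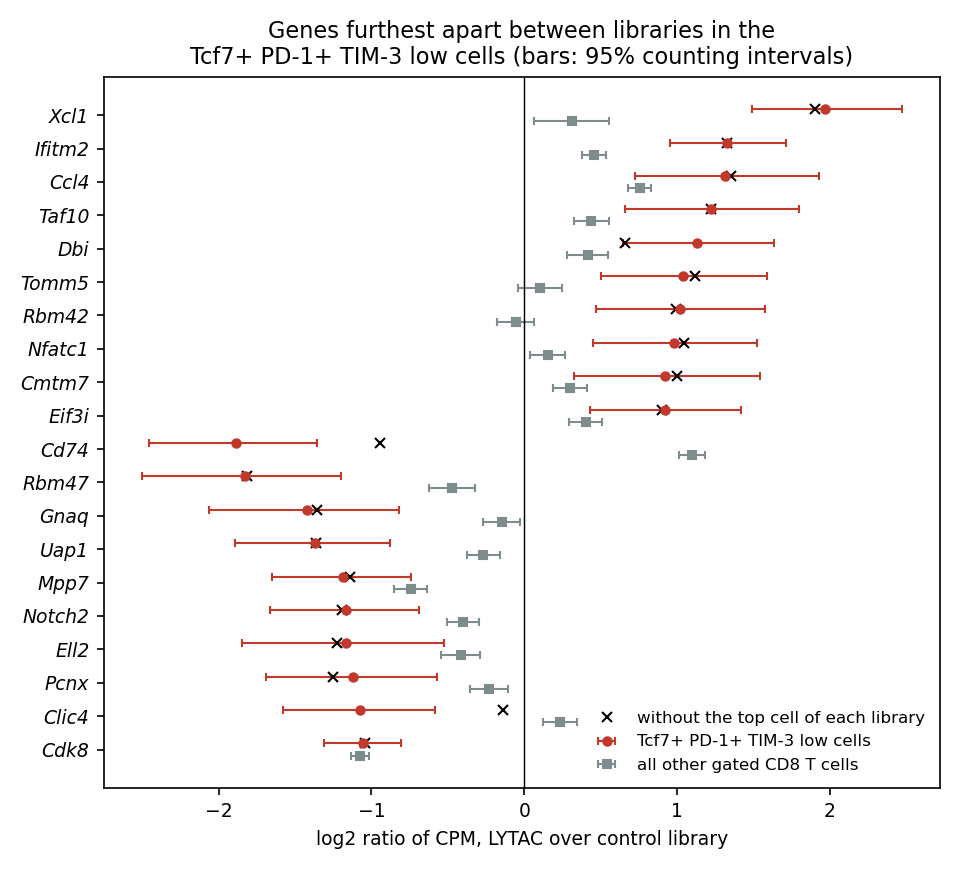
Log2 ratio of CPM, LYTAC over control library (x axis), of the 20 genes named for Tcf7+ PD-1+ cells (circles) and of the same genes in all other gated CD8 T cells (squares), with 95% counting intervals. Crosses show Tcf7+ PD-1+ cells without the cell richest in the gene in each library: Xcl1 stays at 1.90, Cd74 moves to -0.94 and Clic4 to -0.14.

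By gene group, genes of the progenitor-exhausted, the naive and memory and the cytotoxic lists differed between the libraries in both directions. Over all genes, 9.45% differed. The progenitor-exhausted list had 11 of 20 genes with enough UMIs, 2 higher (Xcl1 and Nfatc1) and 1 lower (Tnfsf8), and a median log2 ratio of -0.03 beside -0.05 over all genes. The naive and memory list had 1 of 14 higher (Ltb, lymphotoxin beta, at 472 and 296 CPM) and 1 lower (Satb1, a chromatin organiser of resting T cells, at 535 and 1011 CPM). None of 7 inhibitory-receptor and exhaustion genes differed, among them Tox (396 and 408 CPM), Ctla4 (375 and 342 CPM) and Rgs16 (306 and 289 CPM). Of 12 cytotoxic genes, 2 were higher and 3 lower. Gzmb stood at 186 and 122 CPM, with a log2 ratio of 0.61 (0.19 to 1.03), and Ifng at 132 and 85.5 CPM, with a log2 ratio of 0.63 (0.13 to 1.13). Serpinb9, Zeb2 (a factor of terminal effector cells) and Gzmf were lower, with Gzmf at 55.2 and 111 CPM. Gzmf was found in 2 LYTAC cells, and its log2 ratio of -1.005 became 1.08 without the highest doublet scores. Of the receptors, Tnfrsf18 (GITR) was higher at 271 and 170 CPM, and Il12rb2, through which interleukin-12 acts, was lower at 249 and 437 CPM, though its log2 ratio was 0.30 with the gate read at 2000 UMIs. Of 14 immediate-early genes, Fosb and Nr4a3 were lower and none was higher, with Nr4a3 at 76.9 and 154 CPM. Of 3 interferon-response genes with enough UMIs, none differed.

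The gene of the degraded protein, Bsg, stood at 161 CPM in the LYTAC and 102 CPM in the control Tcf7+ PD-1+ cells, a log2 ratio of 0.65 (0.20 to 1.11), against 0.17 in all other CD8 T cells. Hepatoma cells held 1020.0 and 1035 CPM of Bsg, so RNA from tumour cells may enter these values, and its part was not tested. Emb stood at 1489 and 2033 CPM, with a log2 ratio of -0.45 (-0.57 to -0.33), short of 1.5-fold. Ldha stood at 346 and 304 CPM, and the glucose transporter gene Slc2a3 was lower at 55.2 and 99.6 CPM. Of 10 glycolysis genes only Tpi1 was higher (166 and 91.1 CPM), while the median log2 ratio of the list was 0.38, beside -0.05 over all genes and 0.25 for the same genes in other CD8 T cells. Of 16 genes of oxidative phosphorylation only Ndufa4 was higher (227 and 122 CPM), with a median of 0.31, beside 0.19 in other CD8 T cells.

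Genes of most other cell types were low in the Tcf7+ PD-1+ cells. The 7 B cell genes summed to 65.2 CPM in the LYTAC and 47.7 CPM in the control cells, from the immunoglobulin genes Ighm and Igkc, with at least 1 UMI in 21.3% and 18.6% of cells, while Cd79a, Cd79b, Ms4a1 and Pax5 were at 0 in both. The 10 macrophage genes summed to 25.1 CPM in the LYTAC and 30.8 CPM in the control cells, with C1qa, Adgre1 and Ms4a7 at 0 in both. The 10 hepatoma genes summed to 98.7 and 81.3 CPM, with Apoa1 and Ttr at 0. The 8 dendritic cell genes summed to 31.8 CPM, with 6 at 0, in the LYTAC library and to 75.7 CPM, with Clec9a and Cd209a at 0, in the control library. The 8 natural killer cell genes summed to 119 and 111 CPM, with Klra8 and Klra4 at 0 in both. The 9 neutrophil genes summed to 23.4 and 32.2 CPM, with Cxcr2, Csf3r, G0s2 and Lcn2 at 0 in both. The rule itself capped Lyz2 and Csf1r of the macrophage genes, Krt8 and Krt18 of the hepatoma genes and S100a8 of the neutrophil genes. The sums of these lists were therefore kept low in part by the rule. The 6 genes of gamma-delta T and innate lymphoid cells summed to 977 and 1272 CPM, with Tcrg-C1 and Il17a at 0 in both, and of these sums 955 and 1239 CPM were Rora, which CD8 T cells also express. Of the 5 CD4 T cell genes, Cd40lg was at 0 in both, as were Cd4 and Foxp3 by the rule. The part of these transcripts in the differences above was not tested.

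A T cell receptor beta V segment could be assigned, as the Trbv gene with the most UMIs, in 18 of 75 LYTAC and 24 of 86 control Tcf7+ PD-1+ cells. In the LYTAC library 9 segments were found, led by Trbv17 and Trbv29 with 4 cells each, and in the control library 10 were found, led by Trbv29 with 8 cells. A shared segment does not mark a clone, near-identical segments can share reads, and counts this small allow no comparison of repertoires.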

How the data were processed

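Tumour cells were measured by droplet single-cell RNA sequencing, 1 library a group. The authors deposited 1 matrix a library, with unnormalized UMI counts of genes by barcodes. The file headers name software version 7.1.0, while the submitters' processing notes name Cell Ranger 3.0.2 and mm10.

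Barcodes under 500 UMIs or 300 genes, or above 15% mitochondrial UMIs, were dropped. Doublets were not removed in the values reported: Scrublet's automatic threshold marked 140 LYTAC barcodes and 1 control barcode, so its highest scores (0.8% per 1000 barcodes) were removed only as an alternative, which took 8 of the 86 control Tcf7+ PD-1+ cells and 0 of the 75 LYTAC ones. UMIs were summed over the cells of a population and given as CPM with exact Poisson intervals. Ratios carry exact conditional binomial intervals and shares Clopper-Pearson ones, all at 95%, for counting error only. No p-value was made, since cells are not replicates. The rule for named genes took those with at least 100 UMIs, at least 50 CPM in the higher group and at least 1.5-fold difference: the 10 highest and 10 lowest for LYTAC over control, where the interval also had to exclude 0, and the 12 highest and 12 lowest by the smaller ratio of the 2 libraries between populations. Genes of the gating rule, mitochondrial and ribosomal protein genes and receptor segments were left out of naming. For shares of cells with a UMI, cells were thinned to 2000 UMIs. The members, the gene lists and the thresholds were chosen with earlier results of these data known. The ratio code was tested on simulated data. Python 3.11.15, numpy 2.4.6, scipy 1.17.1, pandas 2.3.3 and scanpy 1.11.5 were used. A few list genes are not reported here.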

Additional observations from a re-analysis of the deposited data

Results flagged for a closer look

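Cd74, the invariant chain of MHC class II, differed between the libraries in opposite directions in 2 sets of CD8 T cells. Its log2 ratio, LYTAC over control, was -1.89 in the Tcf7+ PD-1+ cells and 1.10 in all other gated CD8 T cells. The difference between these ratios was not tested, as there was 1 library a group. One control cell held 62.9% of the Cd74 UMIs of the control Tcf7+ PD-1+ cells, and the log2 ratio was -0.94 without the cell richest in Cd74 in each library.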

How the results depend on the processing

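No paired analysis was possible because each group had 1 library, and for the same reason no replicate could be left out. The LYTAC and control shares of Tcf7+ PD-1+ cells were 4.37% and 3.25% with Havcr2 at 0, 3.11% and 2.74% with Pdcd1 at 2 UMIs or more, and 2.89% and 2.53% with Tcf7 at 2 or more. With cells thinned before gating they were 1.49% and 1.14% at 2000 UMIs and 3.61% and 3.13% at 4000 UMIs. The share was higher in the LYTAC library under each of these settings.

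Counts of genes moved with the UMI minimum. The minimum and the gate also set how many genes are compared. With the settings used above, 2528 genes were compared for LYTAC over control. Over TIM-3-high, PD-1-negative and Tcf7-negative cells 6042, 1728 and 4700 were compared. The numbers compared under the other settings are not given here, so the counts below do not show whether the share of genes that differed rose or fell. For LYTAC over control, 680 genes were higher and 761 lower at 20 UMIs, 3 and 20 at 500 UMIs, and 14 and 8 with gate and sums thinned to 2000 UMIs. Over TIM-3-high cells the counts were 308 and 507, 32 and 76, and 4 and 28 in the same order. Over PD-1-negative cells they were 154 and 111, 2 and 0, and 1 and 0, with 19 and 7 at Tcf7 of 2 or more and 23 higher at Havcr2 of 0. Over Tcf7-negative cells they were 192 and 281 at 20 UMIs and 11 and 25 at 500 UMIs, with 26 higher at Havcr2 of 0.

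Some log2 ratios changed sign, and the cause was not tested. For LYTAC over control these were Clic4 (0.0041) and Gzmf (1.08) without the highest doublet scores, Il12rb2 (0.30) with the thinned gate and Mcm6 (0.13) with Tcf7 at 2 or more. Over TIM-3-high cells they were Cxcl2 in the control library (1.10) without the highest doublet scores and Gm36723 in the LYTAC library (0.25) with the thinned gate. Over PD-1-negative cells with the thinned gate they were Tmem163 (-0.30), Tnfrsf9 (-0.43), 1700025G04Rik (1.40), Foxp1 (0.024), Tox (-0.048), Ikzf2 (-0.25) and Serpinb6b (-0.65) in the LYTAC library, and Dscam (-0.74), Tmem163 (-0.38), Lef1 (0.021) and Serpinb6b (-1.05) in the control library. Over Tcf7-negative cells with the thinned gate they were Gm36723 (0.51) and Klf2 (-1.12) in the LYTAC library and Tnfsf8 (-0.22) and Hspa1a (0.55) in the control library. A further 72 ratios had under 20 UMIs under that gate and were left out, 20 of them with the opposite sign, a limit set after seeing the data.

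The doublet-score alternative removed 8 control and 0 LYTAC Tcf7+ PD-1+ cells. Leaving out the richest cell of each library, like the thinned gates for the PD-1-negative and Pdcd1-positive shares an alternative chosen after seeing the data, moved 3 of 38 gene values. A mitochondrial limit of 10% and CPM without mitochondrial and ribosomal genes moved none of 345 values each. Other settings moved more. Gate and sums thinned to 2000 UMIs moved 101 values and reversed 17, and kept 90. Tcf7 at 2 or more moved 69, reversed 1 and kept 275. Havcr2 at 0 moved 37 and kept 308. The mean over cells of each cell's CPM moved 16 and kept 329. Removing the highest doublet scores moved 9, reversed 3 and kept 333. The sums of 75 and 86 cells limit what can be seen of genes under 100 UMIs.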
